A study of Homo sapiens with 12 samples.

Results

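RNA-seq libraries of IMR90 ER:RAS fibroblasts given 4-hydroxytamoxifen (4OHT) together with 3-deazaadenosine (3DA) were compared with libraries of the same cells given DMSO, the solvent. The comparison takes 8 of the 12 libraries of the series by the treatment in their labels, 4 of 4OHT+3DA (numbered 29 to 32) and 4 of DMSO (17 to 20). Of 62069 gene identifiers in the count table, 13248 had enough reads to be tested. IMR90 is a line of human fetal lung fibroblasts. In its ER:RAS derivative a RAS oncogene is fused to part of the oestrogen receptor, and 4OHT, used at 100 nM, switches the fusion protein on. Every group carried ER:RAS, was at passage 15 and was collected after 6 days in DMEM with 10% serum, with fresh medium on day 4. The DMSO cells stand for non-senescent cells and the cells given 4OHT alone for senescent cells. The 4 libraries of 4OHT alone (21 to 24) define the RAS programme, meaning the genes that differed between 4OHT and DMSO. They also entered the fit of all 12 libraries and a direct comparison with 4OHT+3DA. No group received 3DA without 4OHT, and none lacked ER:RAS, so an effect of 3DA on resting cells was not measured. Neither the 3DA dose nor its time of addition is given in the sources used here. The labels do not say whether the 4 libraries of a group came from separate cultures, so p-values measure the spread between these libraries, which may be technical. For each gene that spread was pooled over all 12 libraries, not taken from the groups compared.

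Active RAS in a normal fibroblast signals through the kinases RAF, MEK and ERK and ends in a lasting arrest of the cell cycle called oncogene-induced senescence. Arrested cells secrete cytokines, proteases and growth factors, the senescence-associated secretory phenotype or SASP, which interleukin 1 signalling, NF-kB and AP-1 factors are known to drive. 3DA resembles adenosine and is known as an inhibitor of S-adenosylhomocysteine hydrolase (AHCY), the enzyme that clears the by-product of methylation by S-adenosylmethionine. Its block is known to slow methylation of RNA, DNA and proteins.

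8 promoters that hold a motif are shown as examples, chosen after the values were seen. They belong to genes of the RAS programme that stayed high with 3DA, and to cell-cycle genes that stayed below DMSO but above 4OHT alone. They do not show how common a motif is. Most promoters of the SASP cytokine and protease lists held no AP-1 match, and shares over the lists are given below. Each is the 150 bases before the RefSeq start site in GRCh38.p14, written 5′ to 3′ in the direction of the gene, with motif matches in capitals. Motifs were searched on both strands in a window from 250 bases before to 50 after the start. The AP-1 motif (TGANTCA) is in capitals for CXCL8 (chr4:73740419-73740568, plus strand), MMP10 (chr11:102780629-102780778, minus strand) and TFPI2 (chr7:93890754-93890903, minus strand). The CHR element (TTTGAA or TTCGAA), known as the site through which the DREAM complex holds late cell-cycle genes down, is in capitals for MKI67 (chr10:128126424-128126573, minus strand), PLK1 (chr16:23678739-23678888, plus strand) and CCNB2 (chr15:59104996-59105145, plus strand). The E2F motif (TTTCCCGC, TTTGGCGC or TTTCGCGC) is in capitals for MCM6 (chr2:135876444-135876593, minus strand), where 2 of its 3 matches overlap, and GINS2 (chr16:85688955-85689104, minus strand).
CXCL8: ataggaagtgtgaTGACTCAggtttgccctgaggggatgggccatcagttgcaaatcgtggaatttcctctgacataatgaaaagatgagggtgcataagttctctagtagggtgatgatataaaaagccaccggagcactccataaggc
MMP10: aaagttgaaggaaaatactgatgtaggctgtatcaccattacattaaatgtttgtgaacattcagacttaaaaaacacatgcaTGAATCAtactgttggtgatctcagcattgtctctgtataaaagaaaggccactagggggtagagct
TFPI2: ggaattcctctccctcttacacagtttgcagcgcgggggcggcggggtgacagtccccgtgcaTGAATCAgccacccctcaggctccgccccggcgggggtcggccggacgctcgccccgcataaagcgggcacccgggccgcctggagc
MKI67: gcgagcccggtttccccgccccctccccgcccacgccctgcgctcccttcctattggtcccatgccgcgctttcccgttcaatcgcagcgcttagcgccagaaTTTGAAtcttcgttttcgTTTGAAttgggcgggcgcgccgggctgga
PLK1: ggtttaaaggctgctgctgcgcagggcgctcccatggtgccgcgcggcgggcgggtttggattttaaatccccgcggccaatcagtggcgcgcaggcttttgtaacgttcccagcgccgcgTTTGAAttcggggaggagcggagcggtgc
CCNB2: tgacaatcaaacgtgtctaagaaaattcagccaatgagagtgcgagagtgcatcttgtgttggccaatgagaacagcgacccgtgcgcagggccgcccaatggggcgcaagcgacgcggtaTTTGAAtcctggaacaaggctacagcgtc
MCM6: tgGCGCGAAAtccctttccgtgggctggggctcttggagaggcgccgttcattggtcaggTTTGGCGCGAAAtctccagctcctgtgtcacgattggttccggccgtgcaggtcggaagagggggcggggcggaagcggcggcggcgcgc
GINS2: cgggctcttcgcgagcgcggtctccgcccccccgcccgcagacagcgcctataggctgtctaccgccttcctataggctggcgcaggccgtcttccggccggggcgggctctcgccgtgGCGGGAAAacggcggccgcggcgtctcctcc

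Counted back from the start, with the base before it as -1, the AP-1 match began at -137 in CXCL8, -67 in MMP10 and -87 in TFPI2. The CHR matches of PLK1 and CCNB2 both began at -29, and one of the 2 matches of MKI67 began at the same position. A promoter was in the RefSeq table for 10199 of the 13248 genes tested, and 4.77% of these held the AP-1 motif, 11.4% the CHR element, 36.8% a CCAAT box (CCAAT) and 4.62% the E2F motif. Of 43 promoters of the mitosis genes described below, 72.1% held the CHR element. Of 35 promoters of the DNA replication genes, 51.4% held the E2F motif. Of 11 promoters of SASP proteases and their inhibitors, 36.4% held the AP-1 motif, and of 18 promoters of SASP cytokines 22.2% did. Higher retained genes, defined below, held the AP-1 motif in 5.59% of promoters if not called against 4OHT and 9.18% if called towards DMSO. Over 2-fold from DMSO these shares were 7.69% and 16.2%. Higher genes moved further with 3DA held it in 3.70%, and genes raised by 4OHT with no call left against DMSO in 7.08%. Among the latter, genes raised over 2-fold by 4OHT held the AP-1 motif in a larger share than the retained genes over 2-fold from DMSO. That share rests on fewer promoters and on genes chosen by their 4OHT change. The AP-1 motif was therefore not most common in the genes that stayed high with 3DA. Genes new with 3DA, defined below, held the AP-1 motif in 4.66% of the promoters of those that were higher and 6.80% of those that were lower. A match describes letters in these windows and is no evidence of binding.

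The 4OHT+3DA libraries held 14306171 to 19291493 reads counted to genes and the DMSO libraries 9451160 to 13101016, so the groups did not overlap in depth. With every library thinned to the smallest total of 9451160 reads, 3353 genes were called higher and 3066 lower of 12594 tested. Library 31 of 4OHT+3DA stood apart from the other 3 on the second principal component, which held 13.3% of the variance (-42.6 against -27.2 to -17.8). Most class counts and some list counts are given with and without it. Other list counts, given once, may also move without it. For example, 14 instead of 12 interferon response genes fell. On the first component, with 62.0% of the variance, the groups averaged -64.1 for DMSO, 24.8 for 4OHT+3DA and 39.3 for 4OHT. Between pairs of libraries of a group, chi-square per degree of freedom was 10.3 to 41.8 in 4OHT+3DA. It was 3.09 to 8.16 in DMSO and 3.83 to 6.64 in 4OHT. This value grows with depth as well as with spread. The pooled SE may be too small for 4OHT+3DA. Levels are given as CPM, the reads of a gene per 1000000 reads of its library after TMM scaling of library sizes. Of 15 fibroblast markers, several of them matrix genes, 3 rose and 8 fell, and the summed level of the list was 10227 to 11537 CPM in 4OHT+3DA against 15282 to 17019 in DMSO. Among all genes tested, 27.0% rose and 24.6% fell. The lung epithelial markers SFTPC, SCGB1A1 and NKX2-1, the endothelial markers PECAM1 and CDH5 and the leukocyte markers CD3E and TYROBP had 0 reads in every library. Other markers of these lists had reads. All 5 tested epithelial markers fell. All 12 epithelial markers, tested or not, summed to 42.0 to 53.9 CPM in 4OHT+3DA and 124 to 148 in DMSO. Of the 3 tested immune markers 2 rose and 1 fell, with a median log2 fold change of 1.57. All 10 immune markers, tested or not, summed to 8.10 to 10.02 CPM in 4OHT+3DA and 7.76 to 11.005 in DMSO. Of the 5 tested endothelial markers 1 rose and 1 fell. All 10 endothelial markers, tested or not, summed to 22.8 to 28.3 CPM in 4OHT+3DA, 21.1 to 23.5 in DMSO and 40.9 to 44.7 in 4OHT.

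Nearly as many genes differed from DMSO with 4OHT+3DA as with 4OHT alone. A gene was called when its adjusted p (Benjamini-Hochberg over all genes tested, edgeR's quasi-likelihood test) was under 0.05. Of the 13248 genes, 6825 (51.5%) were called in 4OHT+3DA against DMSO, 3572 (27.0%) higher and 3253 (24.6%) lower. 727 of the higher genes and 1245 of the lower genes changed over 2-fold, and the 4 libraries of one group lay wholly outside the other 4 for 5924 genes (44.7%). In 4OHT against DMSO, 6889 genes (52.0%) were called, 3511 (26.5%) higher and 3378 (25.5%) lower. 4OHT+3DA differed directly from 4OHT in 3558 genes (26.9%), 1909 (14.4%) higher and 1649 (12.4%) lower. With library totals in place of TMM scaling, 2798 genes were higher and 4035 lower in 4OHT+3DA than in DMSO, so that 40.9% of the calls were higher against 52.3% with TMM, and the median of all genes moved from 0.0086 to -0.089 on the log2 scale. Each pair of these 3 comparisons has libraries in common, so their counts are set side by side and are not independent. In bulk RNA, fewer cells expressing a gene and less of its RNA per cell cannot be told apart.

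Most of the RAS programme was still present with 3DA. Of the 3511 genes raised by 4OHT, 2564 (73.0%) were also higher than DMSO in 4OHT+3DA, 907 were not called and 40 were called lower. Of the 3378 genes lowered by 4OHT, 2407 (71.3%) were lower in 4OHT+3DA, 944 were not called and 27 were higher. For genes that 4OHT changed over 2-fold the shares were 696 of 821 raised genes (84.8%) and 1152 of 1317 lowered genes (87.5%). The median log2 fold change of the 821 was 1.68 in 4OHT and 1.40 in 4OHT+3DA, and that of the 1317 was -1.58 and -1.29. By library the medians ran from 1.33 to 1.37 in 4OHT and 1.10 to 1.11 in 4OHT+3DA for the raised genes, and from -1.43 to -1.34 and from -1.15 to -1.13 for the lowered genes. These genes were chosen by their 4OHT values, which favours a larger change in 4OHT, so the difference in size is a description. Seen from 4OHT+3DA, 671 of the 727 genes over 2-fold higher than DMSO (92.3%) and 1058 of the 1245 over 2-fold lower (85.0%) had been called the same way in 4OHT. Chosen this way, the 727 had medians of 1.59 with 3DA and 1.69 in 4OHT, and the 1245 of -1.45 with 3DA and -1.43 in 4OHT.

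**Figure D1:**
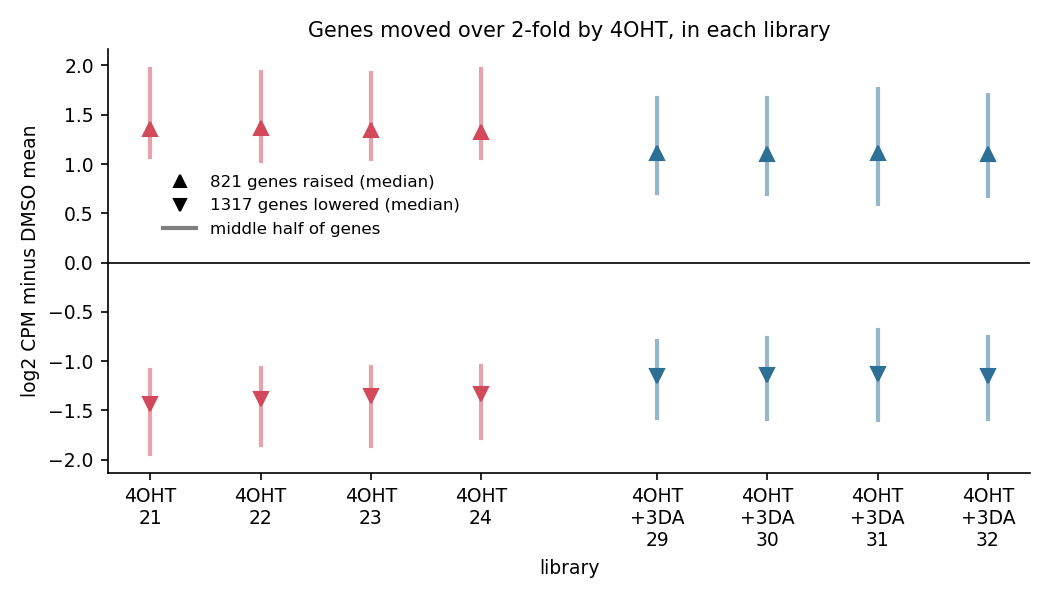
Median log2 CPM minus the mean of the 4 DMSO libraries, with the bar spanning the middle 50% of genes, for the 821 genes raised (upward triangles) and the 1317 genes lowered (downward triangles) over 2-fold by 4OHT, in each 4OHT and 4OHT+3DA library on the x axis. The 4OHT+3DA medians lie at 1.10 to 1.11 and -1.15 to -1.13, nearer to 0 than those of 4OHT, from which the genes were chosen.

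The calls of the 3 comparisons place each gene in a class. The 4971 retained genes were called the same way against DMSO in both treatments. Most of them, 1882 higher and 1693 lower genes, were not called between the treatments. Another 433 higher and 444 lower retained genes were called towards DMSO in 4OHT+3DA against 4OHT, and 249 higher and 270 lower ones had moved further from DMSO with 3DA. Another 828 genes were new with 3DA: they were called against DMSO and against 4OHT in the same direction and not called in 4OHT against DMSO, 514 higher and 314 lower. A further 891 were called in 4OHT against DMSO and back from it in 4OHT+3DA against 4OHT, with no call left against DMSO (429 raised by 4OHT and 462 lowered). The remaining class of 67 genes was called in opposite directions by the 2 treatments, 27 higher and 40 lower than DMSO with 3DA. Without library 31, 3649 genes were higher and 3350 lower than DMSO, and the classes held 5536 retained genes, 620 new genes (523 of them among the 828), 827 genes called back with no call left against DMSO, and 83 opposite genes.

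**Figure D2:**
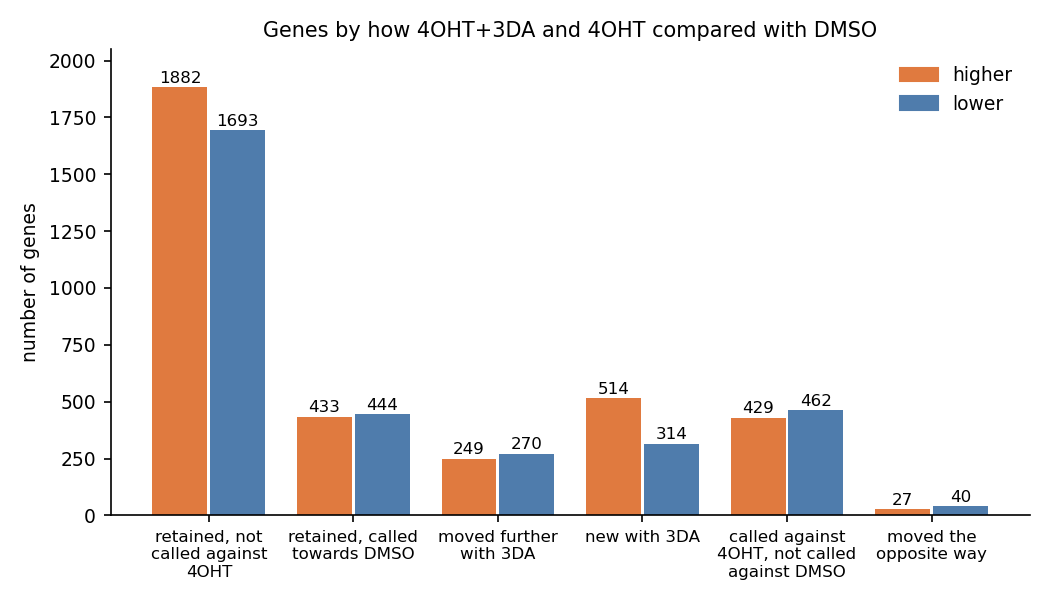
Number of genes (y axis) in 6 classes set by the calls of 4OHT+3DA against DMSO, 4OHT against DMSO and 4OHT+3DA against 4OHT (x axis), with bars for genes higher and lower than DMSO; in the fifth pair the direction is that of 4OHT. The first pair, with 1882 and 1693 genes, is the tallest, and the last pair holds 27 and 40.

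The introduced RAS and the enzyme that 3DA is known to inhibit were read first. HRAS stood at 1715, 1603, 1590.2 and 1533 CPM in the DMSO libraries and 1810.3, 1881, 1555 and 2129.8 CPM in those of 4OHT+3DA. The groups overlapped. Its log2 fold change was 0.20 (SE 0.077, adjusted p 0.0401, edgeR), against 0.51 in 4OHT, and the call was lost with library totals as scaling (0.10), in the fit of the 8 libraries alone (0.17), with genes kept at a mean CPM of at least 1 (0.18), and without DMSO 18, 19 or 20 or 4OHT+3DA 30 or 32. Reads of an introduced RAS would be counted with the cell's own gene, and the labels do not say which RAS gene was used. AHCY rose from 129 ± 4.53 CPM (SD, n = 4) to 168 ± 20.4 (SD, n = 4), a log2 fold change of 0.38 (SE 0.080, adjusted p 5.10e-04, edgeR), with 0.43 in 4OHT. Of 31 genes of the S-adenosylmethionine cycle and methylation enzymes tested, 13 rose and 9 fell against DMSO with a median of 0.22, where the median of all genes was 0.0086. Without library 31, 14 rose and 7 fell and the median was 0.107, and with library totals it was 0.126. In 4OHT 13 rose and 12 fell. Of all genes tested, 27.0% rose and 24.6% fell with 3DA against DMSO. MTAP, which salvages methionine from methylthioadenosine, had a log2 fold change of 1.82 (SE 0.13) against 1.001 in 4OHT, AHCYL1, a relative of AHCY, 0.999 against 1.24, and TET1, a DNA demethylation enzyme, -1.80 against -2.39. NNMT, which methylates nicotinamide with S-adenosylmethionine, had a log2 fold change of -0.76 with 3DA and 0.43 in 4OHT. Among 25 genes of adenosine transport, metabolism and receptors, 14 rose and 5 fell (12 and 7 in 4OHT), beside the same 27.0% and 24.6% of all genes. PNP, which splits inosine and guanosine, rose by 1.66 on the log2 scale, the nucleotidase NT5C3A rose by 1.10, and the receptor gene ADORA2B had -1.50.

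The feedback genes that ERK switches on stayed high with 3DA. Of 30 RAS-ERK feedback and immediate early genes tested, 23 rose and 2 fell in 4OHT+3DA, with a median log2 fold change of 0.98, and 22 rose and 2 fell in 4OHT, with a median of 0.88. Against 4OHT, 5 of the 30 were higher and 9 lower, where 14.4% of all genes were higher and 12.4% lower. Against DMSO, 27.0% of all genes rose with 3DA and 24.6% fell. DUSP6, the phosphatase that switches off ERK, stood at 86.4, 90.3, 88.02 and 94.3 CPM in DMSO, 579.7, 659, 779 and 643 in 4OHT+3DA and 626, 599, 628 and 626 in 4OHT. Both treatments put DUSP6 above DMSO in every library, and their ranges overlapped with each other. Its log2 fold change against DMSO was 2.89 (SE 0.081) with 3DA and 2.79 (SE 0.081) without. SPRY2, another inhibitor of the pathway, had a log2 fold change of 2.14 and 2.27, and the immediate early factor EGR1 1.43 and 1.58. EGR3, a related factor, had a log2 fold change of 3.59 (SE 0.57) with 3DA against 2.42, and EGR2 4.04 against 4.63. The call of EGR3 against 4OHT, at an adjusted p of 0.0450 (edgeR), was lost with DESeq2, with thinning, without library 31 (a log2 difference of 0.83) and without most other libraries in turn, so no difference between the treatments is read from it. The 2 members that fell were AP-1 subunits: FOSL2 had a log2 fold change of -2.20 (SE 0.094) with 3DA and -1.34 in 4OHT, and FOSL1 -0.72 and -0.72.

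SASP cytokines and chemokines stayed high, most of them below the level of 4OHT alone. Of 23 tested members 18 rose and 2 fell against DMSO, with a median log2 fold change of 3.31, where 20 rose and 2 fell in 4OHT with a median of 4.18. Among all genes, 27.0% rose and 24.6% fell with 3DA. Members with no or few reads in DMSO, such as IL33, CCL20 and CSF3, could pass the read filter only through the groups given 4OHT. The count of members that rose is therefore a description. In the fit of the 8 libraries alone 22 members were tested, of which 17 rose and 2 fell. Of the 20 that differed from DMSO both with and without 3DA, 12 were called towards DMSO in 4OHT+3DA against 4OHT, 5 were not called and 3 had moved further. Without library 31, 19 rose and 2 fell. IL1B, which starts the inflammatory cascade with IL1A, had 0.294, 0.450, 0.0924 and 0.587 CPM in DMSO, 35.5, 29.8, 30.9 and 33.5 in 4OHT+3DA and 139, 123, 155 and 142 in 4OHT. Both treatments put IL1B above DMSO in every library, and all 4 libraries of 4OHT+3DA lay below those of 4OHT. The change of IL1B against DMSO on the log2 scale was 6.40 (SE 0.20) with 3DA (adjusted p 2.85e-15, edgeR) and 8.51 (SE 0.18) without, and the log2 difference of 4OHT+3DA from 4OHT was -2.11 (SE 0.10). IL1A followed the same order, with means of 0.102 ± 0.0824 CPM in DMSO, 4.27 ± 0.514 in 4OHT+3DA and 9.76 ± 1.26 in 4OHT (SD, n = 4). CXCL8, the neutrophil chemokine interleukin 8, whose AP-1 match is shown above, rose from 1.94 ± 0.462 to 159.7 ± 14.2 CPM (SD, n = 4), with a log2 fold change of 6.37 (SE 0.13) against 6.63 in 4OHT. The call of CXCL8 against 4OHT was lost with library totals and with no filter on low counts. Leaving out 4OHT libraries 21, 23 or 24 or 4OHT+3DA libraries 30 or 32 in turn also lost it. IL6 differed from these: its levels were 0.882, 0.826, 0.739 and 0.807 CPM in DMSO, 1.98, 0.980, 0.922 and 1.66 in 4OHT+3DA and 4.06, 4.15, 3.52 and 3.67 in 4OHT. The 4 libraries of 4OHT+3DA lay above those of DMSO and below those of 4OHT. The log2 fold change of IL6 against DMSO was 0.75 (SE 0.31) with 3DA, with an adjusted p of 0.0523 (edgeR) that missed the threshold, and 2.23 (SE 0.29) in 4OHT, and it was called at 0.90 without library 31 or with thinning, at 0.89 without library 30 and at 0.76 with each library corrected for the GC content of its genes (GC correction).

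Of the 23, 4 were higher with 3DA than with 4OHT alone: IL33, CXCL6 and CXCL3, raised further above DMSO, and CXCL12, which stayed below it. IL33, an alarmin of the interleukin 1 family, had 0 reads in all 4 DMSO libraries and 4.14, 2.68, 4.21 and 3.73 CPM in 4OHT+3DA, at least 58.5-fold higher than the level that 3 reads over the DMSO group would give. In 4OHT its level was 1.66 to 2.74 CPM. The log2 difference of IL33 from 4OHT was 0.81 (SE 0.26), and its call was lost with GC correction (0.51) and without 4OHT libraries 21, 22 or 23 or 4OHT+3DA libraries 29 or 31. CXCL6, a neutrophil chemokine, had a log2 fold change of 4.16 (SE 0.65) with 3DA and 2.25 (SE 0.80) in 4OHT, and CXCL3 7.24 and 6.71, although reads of CXCL3 may be shared with its near copies CXCL1 and CXCL2. The myeloid growth factor CSF3 had few reads and the chemokine CCL20 had 0 reads in DMSO. CSF3 was 187 times the DMSO level by reads (95% interval 33.2 to 7400.51, counting error only), and CCL20 was at least 20.98-fold higher than 3 reads would give, while the log2 difference from 4OHT was -2.52 (SE 0.15) and -2.33 (SE 0.22). The 2 members that fell were CXCL12, the chemokine of stromal niches, and IL15. CXCL12 had a log2 fold change of -1.46 with 3DA and -3.26 in 4OHT, and IL15 -1.04 and -1.62. CCL26 was called in 4OHT at a log2 fold change of 2.06 and not with 3DA at 0.40.

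Most proteases of the SASP stayed high. Of 19 tested genes of proteases and their inhibitors, 13 rose and 3 fell with 3DA (median 1.25), and 16 rose and 2 fell in 4OHT (median 1.37). Against 4OHT, 2 of the 19 were higher and 9 lower, where 14.4% of all genes were higher and 12.4% lower. With 3DA against DMSO, 27.0% of all genes rose and 24.6% fell. The stromelysin MMP3 stood at 16.6, 22.97, 15.4 and 14.2 CPM in DMSO, 1795, 1648, 1738 and 1814 in 4OHT+3DA and 2066, 1972, 1771 and 1966 in 4OHT. Both treatments put MMP3 above DMSO in every library, and their ranges overlapped with each other. Its log2 fold change was 6.65 (SE 0.12) with 3DA and 6.81 (SE 0.12) without. The collagenase MMP1 had a log2 fold change of 3.48 (SE 0.067) and 3.32 (SE 0.067), and the stromelysin MMP10 6.61 (SE 0.25) and 6.33 (SE 0.25). TFPI2, a serine protease inhibitor, was further up with 3DA, from 48.5 ± 2.88 CPM in DMSO to 1761 ± 259 in 4OHT+3DA and 1344 ± 75.4 in 4OHT (SD, n = 4). The 3 that fell were the metalloproteinase inhibitors TIMP2 and TIMP3, with log2 fold changes of -1.05 and -0.71, and ADAMTS1, a proteoglycan-cleaving protease, with -0.65 where 4OHT gave 0.34.

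Growth factors split by member. Of 25 growth factors and IGF binding proteins tested, 13 rose and 8 fell in 4OHT+3DA (median 0.53), and 13 rose and 7 fell in 4OHT (median 0.63). Against 4OHT, 2 of the 25 were higher and 10 lower. Of all genes, 27.0% rose and 24.6% fell against DMSO, and 14.4% were higher and 12.4% lower than in 4OHT. BMP2, a bone morphogenetic protein, rose from 1.42 ± 0.422 to 68.6 ± 7.59 CPM (SD, n = 4), a log2 fold change of 5.59 (SE 0.20) against 5.31 in 4OHT. HGF, the ligand of the receptor MET, was further up, at a log2 fold change of 2.21 (SE 0.094) against 1.28 (SE 0.092), as was STC1, a secreted glycoprotein hormone, at 4.16 against 3.84. AREG, a ligand of the EGF receptor, was 53.7 times the DMSO level by reads (95% interval 14.6 to 447.7) and had a log2 difference of -0.82 (SE 0.25) from 4OHT, a call lost without 4OHT libraries 21 or 24 or 4OHT+3DA libraries 30 or 31. GDF15, a stress cytokine that p53 also controls, had a log2 fold change of 3.48 (SE 0.082) with 3DA and 4.31 (SE 0.085) in 4OHT.

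**Figure D3:**
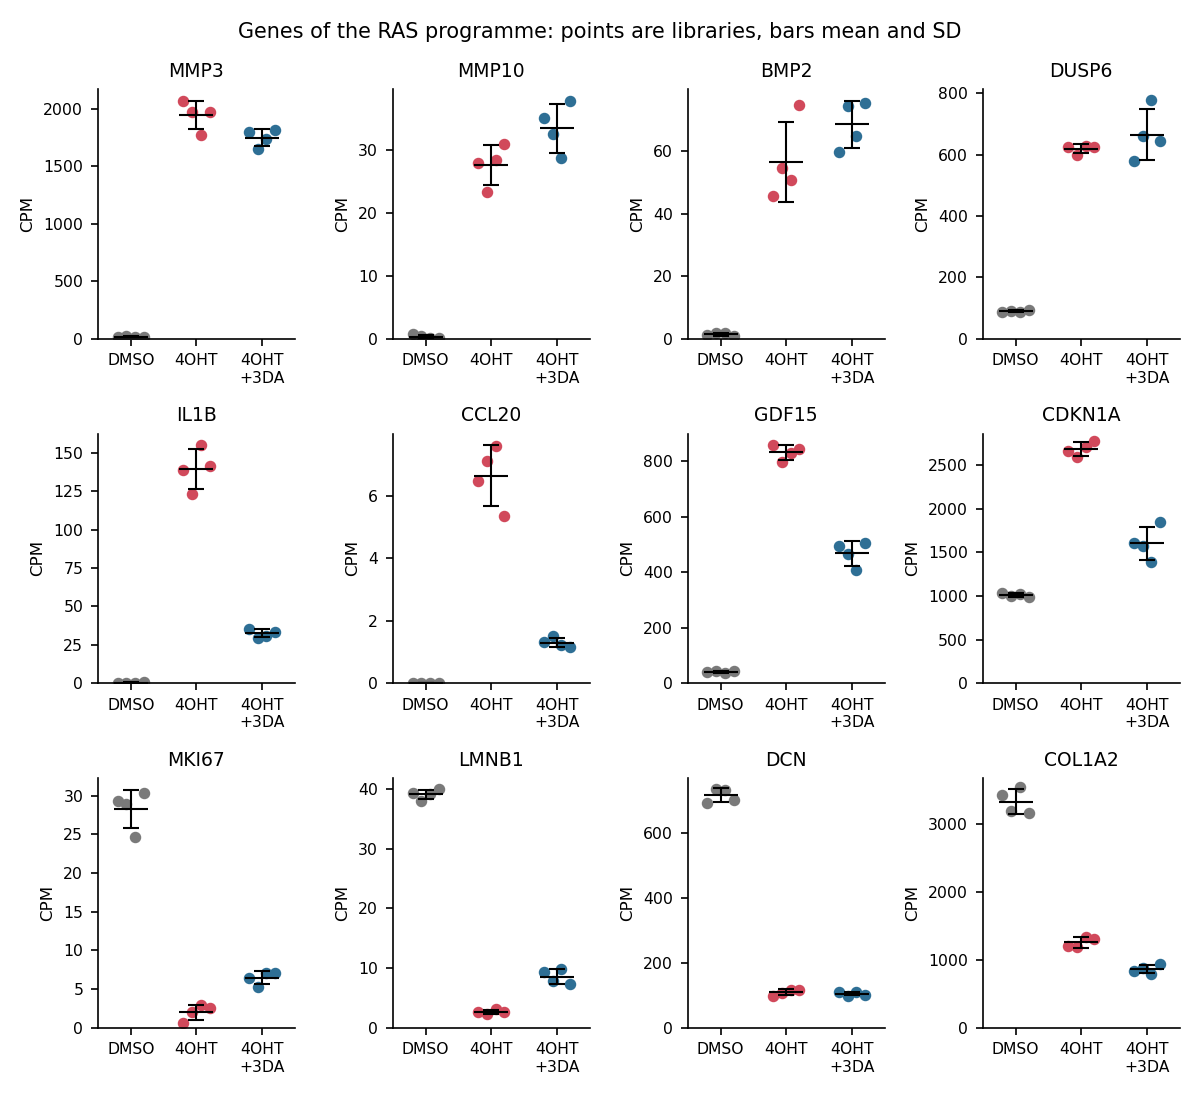
CPM (y axis, from 0) of genes of the RAS programme in each library, by group on the x axis, with 1 point a library and bars for the group mean and SD. IL1B at 32.4 ± 2.60 CPM in 4OHT+3DA lies between DMSO and 4OHT, and MMP3 and DUSP6 overlap with 4OHT.

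More genes of NF-kB signalling fell than rose with 3DA. Of 22 NF-kB subunits, inhibitors and targets tested, 4 rose and 10 fell in 4OHT+3DA, with a median of -0.38, whereas 9 rose and 3 fell in 4OHT, with a median of 0.17. Among all genes, 27.0% rose and 24.6% fell with 3DA against DMSO. Against 4OHT, 10 of the 22 NF-kB genes were lower, where 12.4% of all genes were lower. Without library 31, 5 rose and 10 fell against DMSO and the median was -0.22. TNFAIP3, the ubiquitin-editing inhibitor of NF-kB known as A20, was new with 3DA: it stood at 8.13, 11.5, 10.6 and 6.38 CPM in DMSO, 3.36, 2.58, 2.13 and 2.97 in 4OHT+3DA and 8.70, 6.07, 8.84 and 6.87 in 4OHT. The 4OHT+3DA libraries of TNFAIP3 all lay below those of DMSO and below those of 4OHT. TNFAIP3 changed by a log2 fold of -1.73 (SE 0.21, adjusted p 1.24e-06, edgeR) with 3DA and -0.27 (SE 0.20) without. The inhibitor NFKBIA had a log2 fold change of -0.83 (SE 0.080) with 3DA and 0.072 in 4OHT, TNIP1, a partner of A20, -0.53 and -0.12, and the target gene TNFAIP2 -0.95 and 0.10. BIRC3, a ubiquitin ligase of the pathway, had a log2 fold change of -2.52 against -1.30, and its call against 4OHT was lost without 4OHT libraries 23 or 24. ICAM1, an adhesion molecule for leukocytes, was called in opposite directions. Its levels were 25.4, 20.2, 23.2 and 24.3 CPM in DMSO, 10.4, 9.24, 10.2 and 13.2 in 4OHT+3DA and 51.1, 47.2, 64.95 and 61.1 in 4OHT. Each 4OHT+3DA library lay below, and each 4OHT library above, every DMSO library. Other genes of this list stayed high: the survival gene BCL2A1 had a log2 fold change of 6.58 with 3DA and 6.79 in 4OHT, and the prostaglandin synthase PTGS2 4.49 and 5.28.

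Cell-cycle genes stayed below DMSO but above 4OHT. Of 49 mitosis and G2/M genes tested, 47 fell against DMSO, with a median log2 fold change of -1.40, where 48 fell in 4OHT with a median of -3.10. 47 of the 49 were higher in 4OHT+3DA than in 4OHT, which 14.4% of all genes were. With 3DA, 24.6% of all genes fell against DMSO. Without library 31, 48 of the 49 fell against DMSO. MKI67, the proliferation marker, had 29.3, 28.9, 24.7 and 30.3 CPM in DMSO, 6.48, 5.26, 7.09 and 7.05 in 4OHT+3DA and 0.677, 1.995, 2.90 and 2.53 in 4OHT. The 3 groups did not overlap, with 4OHT+3DA between the other two. The log2 fold change was -2.13 (SE 0.18) with 3DA and -3.74 (SE 0.22) without, and 4OHT+3DA exceeded 4OHT by 1.61 (SE 0.23). PLK1, a mitotic kinase, had a log2 fold change of -1.43 and -3.34, CCNB2, a cyclin of mitosis, -1.74 and -2.72, and the kinesin KIF20A -2.55 and -3.76. Of 43 DNA replication and S phase genes, 2 rose and 37 fell (median -0.99), against 2 and 41 in 4OHT (median -1.72), and 36 were higher than in 4OHT. The helicase subunit MCM6 had a log2 fold change of -1.43 against -2.17 in 4OHT, the replication factor GINS2 -1.55 against -2.75, and TK1, a thymidine kinase of S phase, -2.09 against -3.41. The 2 that rose were CCNE1, the cyclin of S phase entry, by 0.43 on the log2 scale, and RPA2, which binds single-stranded DNA, by 0.33. The call of CCNE1 was lost with library totals (0.34) and without DMSO libraries 18 or 19 or 4OHT+3DA library 32.

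Most genes of DNA repair were lower than DMSO and higher than 4OHT. Of 26 homologous recombination and Fanconi genes, 20 fell with 3DA (median -0.77) and 24 in 4OHT (median -1.81), and 22 were higher in 4OHT+3DA than in 4OHT. Among all genes, 14.4% were higher in 4OHT+3DA than in 4OHT. Of 23 nuclear lamina and HMG chromatin genes, 2 rose and 13 fell with 3DA (median -0.57) and 2 and 16 in 4OHT (median -0.55), and 10 were higher than in 4OHT. FANCD2, the hub of crosslink repair, had a log2 fold change of -1.43 and -2.82. LMNB1, the lamin whose loss is used as a mark of senescence, stood at 39.3, 38.1, 39.2 and 39.98 CPM in DMSO, 9.43, 7.79, 9.80 and 7.25 in 4OHT+3DA and 2.71, 2.23, 3.11 and 2.67 in 4OHT. The 3 groups did not overlap, with 4OHT+3DA between the other two. Its log2 fold change was -2.19 (SE 0.12) with 3DA and -3.86 (SE 0.14) in 4OHT. HMGB2, a chromatin protein, had a log2 fold change of -2.20 and -3.08, with reads that its processed copies may share. EZH2, a methyltransferase of histone H3, had a log2 fold change of -1.66 against -2.29, and among 42 H3 lysine methylation writers and erasers 7 rose and 12 fell (8 and 15 in 4OHT), where 27.0% of all genes rose and 24.6% fell.

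Inhibitors of the cell cycle were not all affected alike. CDKN2B, which encodes p15, had 12.9, 14.6, 13.7 and 14.7 CPM in DMSO, 154, 179, 225 and 179 in 4OHT+3DA and 168, 164, 195 and 189 in 4OHT. Both treatments put CDKN2B above DMSO in every library, and their ranges overlapped with each other. Its log2 fold change was 3.72 (SE 0.11) with 3DA and 3.68 (SE 0.11) without. CDKN1A, which encodes p21, had 1012 ± 22.5 CPM in DMSO, 1606 ± 189 in 4OHT+3DA and 2684 ± 75.2 in 4OHT (SD, n = 4), and 4OHT+3DA differed from 4OHT by -0.74 (SE 0.069) on the log2 scale. CDKN2A, the locus of p16 and p14ARF, whose transcripts a count per gene cannot tell apart, had a log2 fold change of 0.63 (SE 0.091) with 3DA and 1.21 (SE 0.092) in 4OHT. CDKN1C, which encodes p57, fell by 2.45 on the log2 scale with 3DA. Of 27 p53 target genes, 16 rose with 3DA (median 0.34) and 14 rose in 4OHT (median 0.38). Of all genes, 27.0% rose with 3DA and 26.5% in 4OHT. RRM2B, a p53-controlled ribonucleotide reductase subunit, rose by 0.94 on the log2 scale and TIGAR, a brake on glycolysis, by 1.14.

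**Figure D4:**
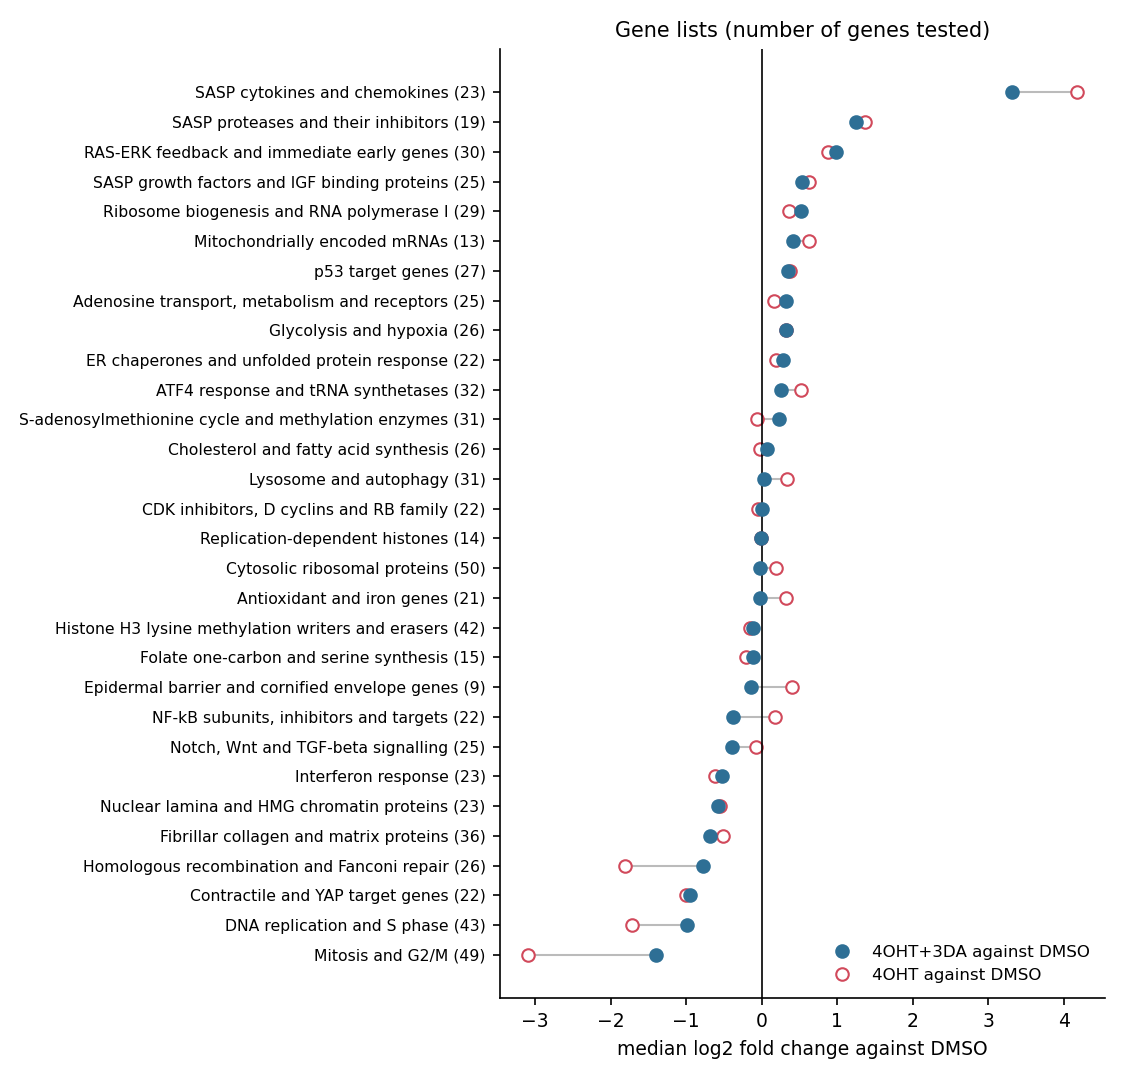
Median log2 fold change against DMSO (x axis) of the tested members of each gene list (y axis), with filled points for 4OHT+3DA and open points for 4OHT. Mitosis genes have a median of -1.40 in 4OHT+3DA and -3.10 in 4OHT, while NF-kB genes have -0.38 and 0.17.

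The matrix and contractile genes that mark these fibroblasts remained low. Of 36 collagen and matrix genes, 6 rose and 23 fell with 3DA (median -0.69), against 6 and 24 in 4OHT (median -0.51). Beside this and the next list, 27.0% of all genes rose with 3DA and 24.6% fell. COL1A2, a chain of type I collagen, fell further with 3DA, from 3319.9 ± 185 CPM in DMSO to 860.5 ± 63.00 in 4OHT+3DA, with 1255 ± 77.1 in 4OHT (SD, n = 4). DCN, the proteoglycan decorin, had a log2 fold change of -2.76 (SE 0.073) with 3DA and -2.70 (SE 0.073) in 4OHT, and POSTN, the matrix protein periostin, rose by 2.60 against 1.96 in 4OHT. Of 22 contractile and YAP target genes, 2 rose and 18 fell (median -0.95), among them the actin-binding proteins of smooth muscle TAGLN and CNN1, with log2 fold changes of -2.004 and -2.18. ANKRD1, a YAP target, was called in opposite directions, at log2 fold changes of -1.36 (SE 0.26) with 3DA and 1.41 (SE 0.22) in 4OHT. The 7 smooth muscle markers, tested or not, which overlap with this list, summed to 588 to 709 CPM in 4OHT+3DA and 1555 to 1649 in DMSO. The 12 epithelial markers, tested or not, summed to 42.0 to 53.9 CPM against 124 to 148. The keratin KRT19 had a log2 fold change of -4.21. The part of cell identity in these changes was not tested.

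KIT, the receptor of stem cell factor, stood at 13.1, 15.2, 16.9 and 13.4 CPM in DMSO, 0.420, 0.464, 0.461 and 0.345 in 4OHT+3DA and 0.484, 0.239, 0.553 and 1.07 in 4OHT. The 4OHT+3DA libraries of KIT all lay below those of DMSO, and they overlapped with those of 4OHT. KIT had a log2 fold change of -5.07 (SE 0.26) with 3DA and -4.57 (SE 0.26) in 4OHT. OXTR, the oxytocin receptor, had a log2 fold change of -4.07, GDF5, a bone morphogenetic protein relative, -4.16, and GALNT15, which starts mucin-type glycans, -4.86, and in 4OHT these stood at -3.96, -3.73 and -3.72. IL32, a cytokine, fell further with 3DA, from 14.9 ± 0.445 CPM in DMSO to 0.895 ± 0.139, with 3.25 ± 0.373 in 4OHT (SD, n = 4). Among 23 interferon response genes 4 rose and 12 fell in both treatments, with medians of -0.53 with 3DA and -0.62 in 4OHT, and IFIT2, an antiviral RNA-binding protein, had a log2 fold change of -2.90. With 3DA, 27.0% of all genes rose against DMSO and 24.6% fell.

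Of 26 genes of the epidermal barrier, 9 had enough reads to be tested. Of these 9, 4 rose and 4 fell, and 6 were lower than in 4OHT. In the fit of the 8 libraries alone 7 were tested, of which 2 rose and 4 fell. Of all genes, 27.0% rose and 24.6% fell with 3DA against DMSO, and 12.4% were lower than in 4OHT. A gene with 0 reads in DMSO could pass the filter only through the groups given 4OHT. IVL, the cornified envelope protein involucrin, had 0 reads in DMSO and 3.78, 3.25, 3.17 and 4.91 CPM in 4OHT+3DA, at least 59.4-fold higher than 3 reads over the DMSO group would give. In 4OHT it stood at 4.93 to 6.31 CPM. The log2 difference of IVL from 4OHT was -0.59 (adjusted p 0.0417, edgeR). That call was lost with library totals, with no filter on low counts and with GC correction. Leaving out any of 4OHT libraries 21 to 24 or 4OHT+3DA libraries 29 to 31 in turn also lost it. PI3, the elastase inhibitor elafin, also had 0 reads in DMSO and was at least 6.36-fold higher than that floor, with a log2 difference of -4.07 (SE 0.32) from 4OHT. LCE1F and LCE3D, late cornified envelope genes whose near copies may share their reads, were the other two that rose.

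Of 22 chaperones of the endoplasmic reticulum and genes of the unfolded protein response, 14 rose with 3DA (median 0.28), against 13 that rose and 2 that fell in 4OHT (median 0.19). With library totals as scaling 10 rose and 1 fell with 3DA. In all, 12 of the 22 were higher than in 4OHT, against 14.4% of all genes. DNAJB9, a chaperone cofactor induced by unfolded protein, had a log2 fold change of 1.23 (SE 0.17) with 3DA and 0.69 (SE 0.17) in 4OHT, and MANF, a secreted stress protein, 0.95 and 0.53. The call of DNAJB9 against 4OHT was lost without 4OHT libraries 21 or 22. Of 29 genes of ribosome biogenesis, 21 rose with 3DA (median 0.51), against 20 in 4OHT (median 0.36), and 8 were higher than in 4OHT. NOLC1, a nucleolar phosphoprotein, had a log2 fold change of 1.12 and 0.41. Of 50 cytosolic ribosomal protein genes 1 fell with 3DA, RPL3 at a log2 fold change of -0.21, whereas 18 rose in 4OHT, and 15 were lower in 4OHT+3DA than in 4OHT. 7 of them fell when library 29 was left out or with library totals as scaling, and 3 rose without library 32, so no direction is given for this family. Of 31 lysosomal genes 13 rose and 7 fell with 3DA, against 19 and 4 in 4OHT, and 20 were lower than in 4OHT, which 12.4% of all genes were. Against DMSO, 27.0% of all genes rose with 3DA and 24.6% fell, the latter near the share of lysosomal genes that fell. The median of the lysosomal genes against DMSO was 0.03 and turned to -0.07 with library totals. The cathepsin CTSS was called in 4OHT only, with 3.92, 3.68, 4.53 and 3.89 CPM in DMSO, 4.14, 4.18, 2.71 and 6.98 in 4OHT+3DA and 11.5, 11.4, 12.2 and 11.7 in 4OHT. The 4OHT+3DA and DMSO libraries overlapped for CTSS, and those of 4OHT lay above both. NPC1, the lysosomal cholesterol exporter, had a log2 fold change of 1.95 with 3DA and 2.63 in 4OHT.

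Of 32 ATF4 response and tRNA synthetase genes, 17 rose and 5 fell with 3DA (median 0.25), against 20 and 5 in 4OHT (median 0.52), and 13 were lower than in 4OHT. TRIB3, a pseudokinase induced by amino acid stress, had a log2 fold change of 1.17 with 3DA and 1.37 in 4OHT, and the cystine transporter SLC7A11 1.28 and 1.71. Of 26 glycolysis and hypoxia genes, 15 rose and 5 fell (14 and 5 in 4OHT), among them HK2, the hexokinase that starts glycolysis, at a log2 fold change of 2.46 (SE 0.077) with 3DA and 2.31 (SE 0.077) in 4OHT. Of 13 mRNAs encoded in mitochondria, 12 rose (median 0.41) against 13 in 4OHT (median 0.62), with reads that nuclear copies may share. Of 21 antioxidant and iron genes, 10 rose and 7 fell (12 and 4 in 4OHT), and HMOX1, the haem-degrading enzyme, had a log2 fold change of 1.19 (SE 0.11) with 3DA and 1.98 (SE 0.11) in 4OHT. Of 25 Notch, Wnt and TGF-beta genes, 5 rose and 12 fell (6 and 11 in 4OHT), and the Notch targets HES1 and HEY1 rose by 2.46 and 2.94 on the log2 scale against 2.64 and 3.40. Of 26 cholesterol and fatty acid genes, 9 rose and 5 fell (6 and 8 in 4OHT), with a median of 0.07 that turned to -0.03 with library totals. Of 15 folate and serine genes 4 rose and 4 fell, a share near the 27.0% and 24.6% of all genes, and 7 fell with library totals or without library 32. Of 14 replication-dependent histones, which share reads with their near copies, 6 rose and 6 fell. Of 22 CDK inhibitors, D cyclins and RB family genes, 7 rose and 8 fell (7 and 9 in 4OHT). All counts of this paragraph against DMSO stand beside the 27.0% of all genes that rose with 3DA and the 24.6% that fell.

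Most changes new with 3DA were small. Of the 828, 30 were over 2-fold higher and 61 over 2-fold lower than DMSO, and the median log2 fold changes were 0.51 and -0.54. KCTD12, a subunit of GABA type B receptors, had the largest rise of those named, with 2.84, 6.23, 7.11 and 7.41 CPM in DMSO, 24.9, 28.3, 39.1 and 22.2 in 4OHT+3DA and 5.61, 5.19, 7.19 and 6.94 in 4OHT. The 4OHT+3DA libraries of KCTD12 all lay above those of DMSO and above those of 4OHT. Its log2 fold change was 2.26 (SE 0.22, adjusted p 5.44e-08, edgeR) against 0.071 in 4OHT. GJA1, the gap junction protein connexin 43, stood at 88.99, 86.1, 99.9 and 91.7 CPM in DMSO, 211, 266, 409 and 218 in 4OHT+3DA and 102, 94.6, 111 and 114 in 4OHT. The 4OHT+3DA libraries of GJA1 all lay above those of DMSO and above those of 4OHT. PDLIM3, an actin-binding protein of muscle, had a log2 fold change of 1.65, CERS6, a ceramide synthase, 1.39, and CARNMT1, which methylates carnosine with S-adenosylmethionine, 1.36, and in 4OHT these stood at 0.51, -0.57 and 0.31 with no call. PDGFRA, the receptor of platelet-derived growth factor, rose by 0.79 on the log2 scale against -0.11.

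CDA, which deaminates cytidine, was among the new genes that fell and stood at 4.90, 6.38, 4.90 and 4.99 CPM in DMSO, 0.660, 0.671, 0.749 and 0.8291 in 4OHT+3DA and 3.68, 5.19, 3.11 and 3.80 in 4OHT. The 4OHT+3DA libraries of CDA all lay below those of DMSO and below those of 4OHT. CDA changed by a log2 fold of -2.86 (SE 0.24, adjusted p 7.02e-09, edgeR) against -0.43 in 4OHT. SLC28A3, a nucleoside transporter, had a log2 fold change of -0.99 and -0.14, and its call against 4OHT was lost with thinning and without 4OHT libraries 22 or 24 or 4OHT+3DA libraries 29 or 30. TEK, the angiopoietin receptor, had a log2 fold change of -1.98, AKR1C3, a reductase of steroids and prostaglandins, -1.50, and KLHL3, a ubiquitin ligase adaptor, -1.42. The median GC content of new higher genes was 40.1%, of new lower genes 52.7% and of all tested genes with a value 47.6%. With each library corrected for GC content, an alternative added after the data were seen, 747 genes were new, 518 of them among the 828, and the part of GC content in these classes was not tested further.

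**Figure D5:**
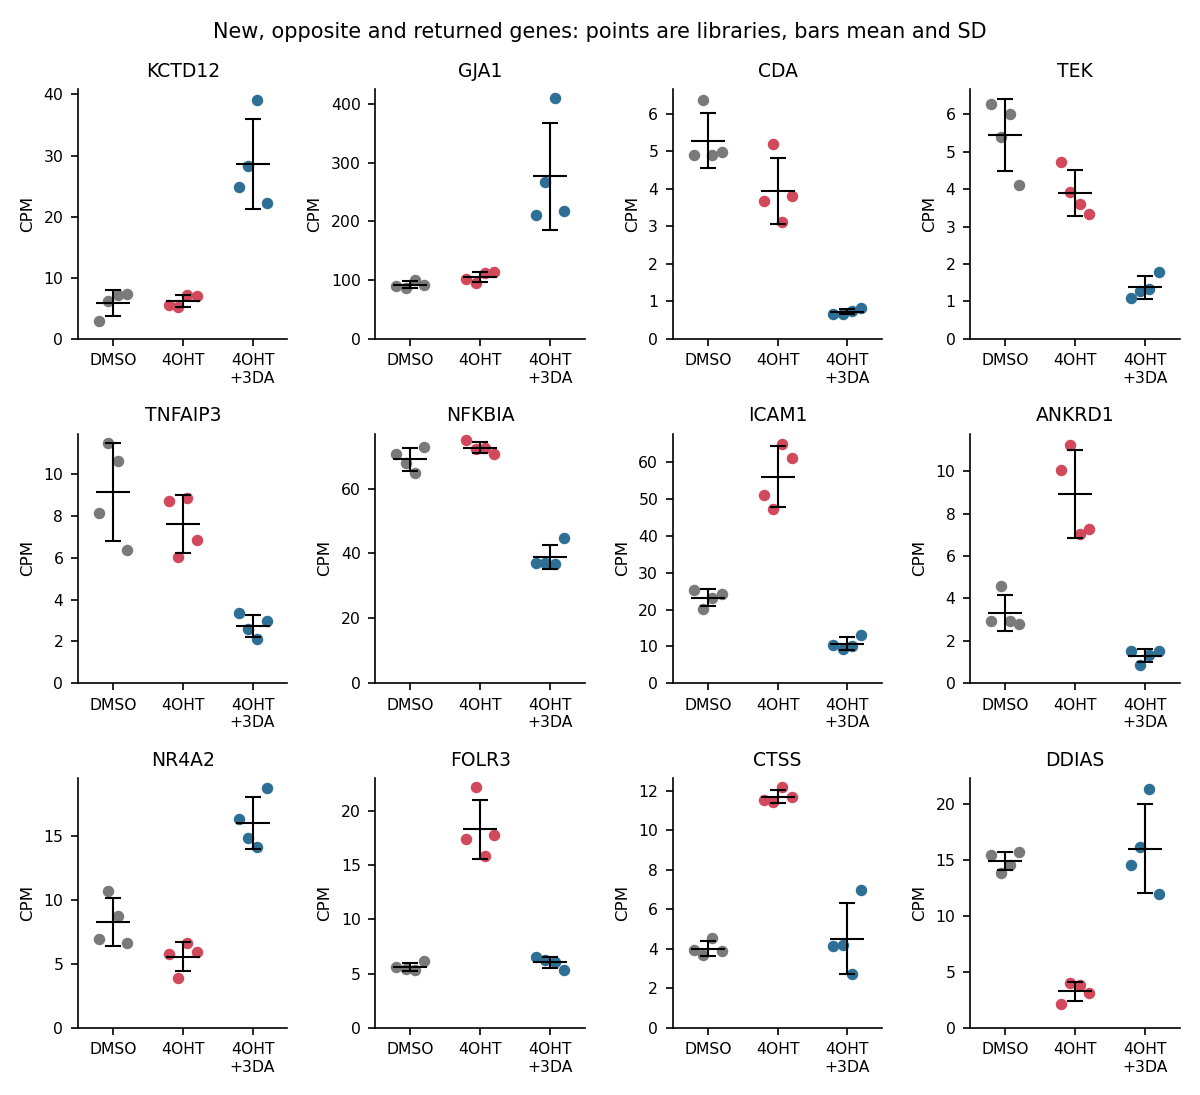
CPM (y axis, from 0) in each library, by group on the x axis, with 1 point a library and bars for the group mean and SD, for genes new with 3DA, called in opposite directions or called in 4OHT only. KCTD12 averages 28.6 ± 7.42 CPM in 4OHT+3DA, above both other groups, and CDA averages 0.727 ± 0.0785 CPM, below both.

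Few genes crossed to the other side of DMSO. C15orf48, a mitochondrial subunit gene induced in inflammation, stood at 3.53, 4.20, 3.05 and 4.04 CPM in DMSO, 1.20, 0.826, 0.922 and 1.38 in 4OHT+3DA and 7.64, 9.82, 8.50 and 7.47 in 4OHT. Each 4OHT+3DA library lay below, and each 4OHT library above, every DMSO library. NEDD4L, a ubiquitin ligase of ion channels, had a log2 fold change of -1.39 (SE 0.18) with 3DA and 0.66 (SE 0.17) in 4OHT. FTL, the ferritin light chain, had a log2 fold change of -0.28 with 3DA and 0.59 in 4OHT, the quinone reductase NQO1 -0.27 and 0.55, and the autophagy receptor SQSTM1 -0.26 and 0.72. Reads of FTL may be shared with its many processed copies. In the other direction NR4A2, an orphan nuclear receptor, had a log2 fold change of 0.95 (SE 0.17) with 3DA and -0.56 in 4OHT. LSM5, HNRNPH1, CFAP97, NUDT12 and ST6GALNAC3 were also called in that direction, but each lost the call against DMSO without library 31, with GC correction or both. Among genes with no call left against DMSO, DDIAS, which protects against DNA damage, had 15.5, 13.9, 14.6 and 15.7 CPM in DMSO, 14.5, 16.2, 21.4 and 11.95 in 4OHT+3DA and 2.13, 3.99, 3.80 and 3.07 in 4OHT. Its 4OHT+3DA and DMSO libraries overlapped, and those of 4OHT lay below both. The log2 fold change of DDIAS was 0.11 (SE 0.16) with 3DA and -2.18 (SE 0.19) in 4OHT. FOLR3, a secreted folate receptor, had a log2 fold change of 0.10 (SE 0.15) against 1.70 (SE 0.14).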

How the data were processed

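The deposited table gives raw counts of reads per Ensembl gene for 12 libraries, made by the authors with CASAVA 1.8.2, TopHat2 2.0.11 and featureCounts 1.18.0 on hg19, per the submitters' processing notes. Per the labels' protocols, libraries were made with Smart-Seq2 and Nextera XT, which does not mark strand, so reads of overlapping or antisense genes cannot be told apart, and there are no molecular identifiers. Symbols came from a table that matched 50127 of 62069 identifiers. Identifiers with no match carried 0.488% of the reads and stayed in the fit.

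The counts were fitted for all 12 libraries (9 residual degrees of freedom) with edgeR 4.0.16 in R 4.3.3, using filterByExpr with a minimum count of 10, TMM scaling and the quasi-likelihood test. A gene with few reads in DMSO could pass this filter only through the groups given 4OHT, so its rise is a description. All adjusted p-values and log2 fold changes come from this fit, and Benjamini-Hochberg adjustment ran over the 13248 genes tested. Each group had 4 replicates, assigned by the labelled treatment. Intervals of ratios and floors of 3 reads cover counting error only. Counts of 13075 genes were simulated for 4OHT+3DA against DMSO, with 66, 67 and 65 genes changed 1.5-, 2- and 4-fold. Of these, 50.0%, 76.1% and 98.5% were recovered, and 4 unchanged genes were called. Far fewer genes changed there than the 51.5% called in the data, so these shares do not give the power of the real comparison.

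The comparison, its classes and the 30 gene lists and 5 marker lists (867 of 890 pathway entries matched, 801 tested) were chosen with earlier results of these data known. Named genes were a fixed set of markers, the most changed genes with average log2 CPM above 1 overall and in each class, and up to 4 of the most changed members of each list. PLK1, CCNB2, MCM6, GINS2, NFKBIA, TNFAIP2, TNIP1, ADAMTS1, FTL, NQO1, SQSTM1, NNMT, CXCL12, IL15, SPRY2, EGR1, TIMP2, TIMP3, PDGFRA, CCL26, CXCL6, HGF, CCNE1, RPA2 and FOSL1 were chosen after their values were seen, and so were the promoters shown. Alternatives were DESeq2 1.42.0, limma-voom (limma 3.58.1), other scalings and filters, a stricter threshold, a fit of the 8 libraries alone and leaving out each library. A GC correction and thinning to equal depth were added after the data were seen.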

Additional observations from a re-analysis of the deposited data

Results flagged for a closer look

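Within groups of 4 libraries, a library was marked when its gap to the nearest of the others exceeded Dixon's 95% critical share of the group's whole range. Over 120 named genes in the DMSO and 4OHT+3DA groups this held in 18 of 240 cases (7.5%), where chance marks about 1 in 20. DMSO library 18 gave 8 of the 18, 7 of them high. It was high for CDA at 6.38 CPM (others 4.90 to 4.99), ANKRD1 at 4.58 (2.79 to 2.96), TFPI2 at 52.8 (46.6 to 47.5), TIGAR at 66.1 (57.9 to 58.3), AHCYL1 at 34.8 (28.8 to 29.3), EGR3 at 0.375 (0.0734 to 0.0980) and CSF3 at 0.0751, where the others had 0 reads. It was low for GDF5 at 8.86 CPM (13.8 to 14.6). In other DMSO libraries, PDLIM3 was high in 19 at 3.79 CPM, SPRY2 in 20 at 28.2 and HK2 in 17 at 25.8, while AKR1C3 was low in 17 at 3.33 and HNRNPH1 in 17 at 333.8.

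Among the 4OHT+3DA libraries, number 31, which also stood apart on the second principal component, was high for SLC28A3 at 1.79 CPM and PDGFRA at 175 CPM. Library 32 was high for NFKBIA at 44.6 CPM and TET1 at 1.73 CPM, and library 30 was low for GDF5 at 0.568 CPM. HNRNPH1 lost its call against DMSO in several settings.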

How the results depend on the processing

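For 4OHT+3DA against DMSO, no called value changed direction among 4427 values of 202 genes under the alternatives: 4338 stayed on the same side of the threshold, 75 lost the call and 14 gained one. Of 4229 values against 4OHT, on which the classes also rest, 127 lost the call and 47 gained one, and RRM2B, not called at 0.09, was called at -0.21 with GC correction. Against DMSO, 176 of the 189 genes called were called in every setting that tested them. Leaving out 1 library at a time, 4OHT+3DA against DMSO gave 3288 to 3649 higher and 2971 to 3350 lower genes, and 4OHT against DMSO 3240 to 3909 and 3105 to 3758. The classes held 4520 to 5536 retained genes, 620 to 997 new genes, 657 to 1027 called against 4OHT with no call left against DMSO, 343 to 644 moved further and 44 to 94 opposite, the lowest of the last 2 without 4OHT library 22 and DMSO library 18. At an adjusted p under 0.01 the last 4 classes held 434, 520, 217 and 25 genes. The cause was not tested. No paired analysis was possible because the groups share no replicate number. The 3DA dose, the source of the replicates and the effect of 3DA without 4OHT are limits that these libraries do not resolve.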
